A study of Homo sapiens with 4 samples.

Results

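The genes described here are 10 transcriptional targets of the ERK pathway that act back on it: DUSP4, DUSP5, DUSP6, SPRY2, SPRY4, SPRED1, SPRED2, ETV4, ETV5 and PHLDA1. They were chosen by gene name, and all 10 were found once each among the 58735 genes of the RNA-seq table. The table holds 4 libraries, 1 for each growth form (adherent or spheroid) of the lines HCT116 and LOVO, with wild-type genotype in the labels. HCT116 and LOVO are established human colorectal cancer cell lines. The adherent cells grew without drug in RPMI-1640 with serum. The spheroids were formed with oxaliplatin, a platinum drug that crosslinks DNA, at a dose that the labels give as 1 mg/ml and the study's methods as 1 μg/ml. According to those methods spheroids grew in ultralow attachment dishes in serum-free DMEM/F12 with B27, N2, EGF and bFGF, and EGF and bFGF are themselves activators of the ERK pathway. Growth form, medium, growth factors and drug therefore changed together and cannot be told apart. Since each condition had 1 library, no difference within a line has a replicate check, and the intervals below, made from reads, cover only counting error.

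In the ERK pathway, growth factor receptors switch on RAS, and RAS sets off the kinase chain of RAF, MEK and ERK. Active ERK then raises the transcription of proteins that dampen the same chain, so that mRNA levels of these feedback genes are commonly read as a gauge of ERK output. DUSP4 and DUSP5 are phosphatases that act on MAP kinases in the nucleus, and DUSP6 is the ERK phosphatase of the cytoplasm. The Sprouty proteins SPRY2 and SPRY4 and the related SPRED1 and SPRED2 hold back signalling at or above RAF, and SPRED1 does so by bringing neurofibromin to RAS. ETV4 and ETV5 are ETS transcription factors of the PEA3 group that carry ERK output to further genes. PHLDA1 is a pleckstrin homology-like protein induced by growth factors.

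The labels were checked against marker genes before the results. HCT116 libraries held EPCAM at 85.6 FPKM in adherent cells and 79.3 FPKM in spheroids, and the epithelial cadherin gene CDH1 at 31.1 FPKM in both. FPKM scales the fragments of a gene to its length in kilobases and to a library size, which here was not the plain read total. In the libraries labelled LOVO, the intestinal factor CDX2 had 0 reads in both, which is under the floor of 3 reads. CDH1 had 13 reads in the adherent cells and 1 read in the spheroids, and EPCAM stood at 0.930 and 1.499 FPKM. Of 11 colorectal epithelium markers, 3 reached 1 FPKM in the adherent LOVO library and 4 in its spheroids, against 6 and 7 in HCT116. The keratins KRT8, KRT18 and KRT19 were among those present. In the LOVO libraries KRT8 stood at 189 and 81.6 FPKM, KRT18 at 122 and 98.8 FPKM and KRT19 at 14.9 and 4.85 FPKM. All 3 were higher in both HCT116 libraries. CDX1, VIL1, LGALS4 and CDH17 were under 1 FPKM in all 4 libraries. The epithelium markers summed to 327 and 187 FPKM in the LOVO libraries and to 1754 and 1288 FPKM in HCT116. Of 6 fibroblast markers, 4 and 5 reached 1 FPKM in the LOVO libraries, with lumican (LUM) at 31.4 and 50.4 FPKM and decorin (DCN) at 10.4 and 9.97 FPKM, whereas the fibroblast collagen gene COL1A2 had 0 reads and 1 read. The collagen gene COL1A1 was highest in HCT116 spheroids. It stood at 5.51 and 15.5 FPKM in HCT116 and 9.89 and 6.10 FPKM in the LOVO libraries, with the adherent cells first. The summed fibroblast marker level was 54.0 and 72.8 FPKM there and 5.60 and 16.1 FPKM in HCT116. Endothelial markers summed to 1.13 and 7.84 FPKM in the LOVO libraries, most of the latter being PECAM1 at 6.35 FPKM, and to 0.254 and 0.753 FPKM in HCT116. Of 4 leukocyte markers, 0 reached 1 FPKM in any of the 4 libraries. The LOVO libraries thus go against their label in the markers CDX2, CDH1 and EPCAM, though not in the keratins. They are called LOVO-labelled below, and every line difference compares the libraries under these labels. In bulk samples, fewer cells of a type and less RNA per cell cannot be told apart. The part of these markers in the results below was not tested.

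Promoter windows of RefSeq were available for 6 of the 10 genes. The windows run from 250 bases before to 50 after an annotated start in GRCh38.p14. They are shown for DUSP6, SPRY4 and PHLDA1, which were far higher in HCT116 than in LOVO-labelled cells, and for SPRY2, which went the opposite way. The DUSP6 window lies at chr12:89352452-89352751, that of SPRY4 at chr5:142324198-142324497, that of PHLDA1 at chr12:76031727-76032026 and that of SPRY2 at chr13:80339610-80339909, all on the minus strand. Capitals mark GGAA, the core of ETS factor sites, or its reverse complement TTCC.
DUSP6: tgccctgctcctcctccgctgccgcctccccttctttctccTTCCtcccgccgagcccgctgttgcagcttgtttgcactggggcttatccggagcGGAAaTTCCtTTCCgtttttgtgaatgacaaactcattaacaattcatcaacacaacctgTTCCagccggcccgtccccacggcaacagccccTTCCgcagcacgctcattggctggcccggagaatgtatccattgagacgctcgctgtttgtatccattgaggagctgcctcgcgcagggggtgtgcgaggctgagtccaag
SPRY4: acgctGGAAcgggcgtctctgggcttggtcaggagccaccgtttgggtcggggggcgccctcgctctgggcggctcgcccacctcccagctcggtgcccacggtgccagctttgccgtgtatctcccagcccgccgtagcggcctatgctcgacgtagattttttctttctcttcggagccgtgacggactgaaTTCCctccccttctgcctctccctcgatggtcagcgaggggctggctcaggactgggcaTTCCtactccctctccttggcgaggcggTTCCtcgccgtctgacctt
PHLDA1: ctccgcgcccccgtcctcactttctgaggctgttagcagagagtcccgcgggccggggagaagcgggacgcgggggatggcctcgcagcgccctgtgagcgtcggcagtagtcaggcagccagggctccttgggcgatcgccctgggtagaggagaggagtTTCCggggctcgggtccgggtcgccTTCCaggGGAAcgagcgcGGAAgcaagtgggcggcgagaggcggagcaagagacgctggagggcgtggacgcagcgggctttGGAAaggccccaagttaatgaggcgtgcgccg
SPRY2: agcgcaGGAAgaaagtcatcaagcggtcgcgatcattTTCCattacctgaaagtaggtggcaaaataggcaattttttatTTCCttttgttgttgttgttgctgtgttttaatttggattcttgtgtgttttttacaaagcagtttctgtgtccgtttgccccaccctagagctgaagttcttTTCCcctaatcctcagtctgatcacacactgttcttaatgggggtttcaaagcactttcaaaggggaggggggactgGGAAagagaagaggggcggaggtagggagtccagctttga
The core occurs 6 times in the DUSP6 window, 4 times in SPRY4, and 5 times each in PHLDA1 and in the SPRY2 window shown. SPRY2 has 2 other windows in the table, with 4 and 3 cores, so the one shown has the most. Its GC content is 44.7%, against 63% and 71% in the others. The window shown and that at chr13:80340059-80340358 lie inside the SPRY2 gene, which runs from 80335976 to 80340951. Which start of SPRY2 these cells use was not tested. The core is a common string, found in 95.5% of all 35116 windows. The longer ETS string CGGAAG is held by 19.5% of all windows and by 3 of the 9 windows of these genes. Among the shown windows it lies on the reverse strand 62 bases before the start of DUSP6. In PHLDA1 it lies on the forward strand 47 bases before the start. The ETS string AGGAAG is in 33.6% of all windows and in 7 of the 9. Of the shown windows, those of DUSP6 and SPRY2 hold AGGAAG, and so does every other SPRY2 window. The ETS string GGAAGT is in 22.8% of all windows and in 1 of the 9, a SPRY2 window that is not shown. The octamers TGAATGAA and TGAATGGA, which are bound by the repressor CIC, are in 2.63% of all windows and in 0 of the 9 windows of these genes. Both strands were searched for each string.

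The phosphatase genes DUSP4, DUSP5 and DUSP6 had higher levels in HCT116 than in LOVO-labelled libraries. DUSP5 stood at 163 FPKM in adherent HCT116 cells, 81.3 FPKM in their spheroids, 4.01 FPKM in adherent LOVO-labelled cells and 15.2 FPKM in LOVO-labelled spheroids. DUSP6 stood at 39.98 FPKM in adherent HCT116 cells and 105 FPKM in their spheroids, against 0.867 and 6.78 FPKM in the LOVO-labelled cells. DUSP4 had 24.7 and 41.6 FPKM in HCT116 and 6.02 and 8.16 FPKM in the LOVO-labelled cells. Both HCT116 libraries were thus above both LOVO-labelled libraries for all 3 phosphatases.

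Of the feedback inhibitors, SPRY4 had 23.1 FPKM in adherent HCT116 cells and 29.2 FPKM in spheroids, but 0.221 FPKM, from 26 reads, in adherent LOVO-labelled cells and 2.52 FPKM in their spheroids. SPRY2 had the opposite order, with 2.86 and 3.27 FPKM in HCT116 and 8.94 and 19.1 FPKM in the LOVO-labelled cells. It was the only one of the 10 genes with both LOVO-labelled libraries above both HCT116 libraries. The SPRED genes differed less, with SPRED1 at 8.24 and 9.04 FPKM in HCT116 and 3.98 and 5.85 FPKM in the LOVO-labelled cells. SPRED2 had 17.8 and 16.2 FPKM in HCT116 and 7.60 and 7.81 FPKM in the LOVO-labelled cells.

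The transcription factor gene ETV4 had 20.8 FPKM in both HCT116 libraries, 4.36 FPKM in adherent LOVO-labelled cells and 16.0 FPKM in their spheroids. ETV5 had 23.7 and 16.4 FPKM in HCT116 and 10.4 and 9.19 FPKM in the LOVO-labelled cells. PHLDA1 had 47.5 and 82.3 FPKM in HCT116 and 3.64 and 4.34 FPKM in the LOVO-labelled cells. Summed over the 10 genes the level was 371 and 405 FPKM in HCT116 and 50.1 and 94.99 FPKM in the LOVO-labelled cells, with the adherent cells given before the spheroids in each line.

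**Figure D1:**
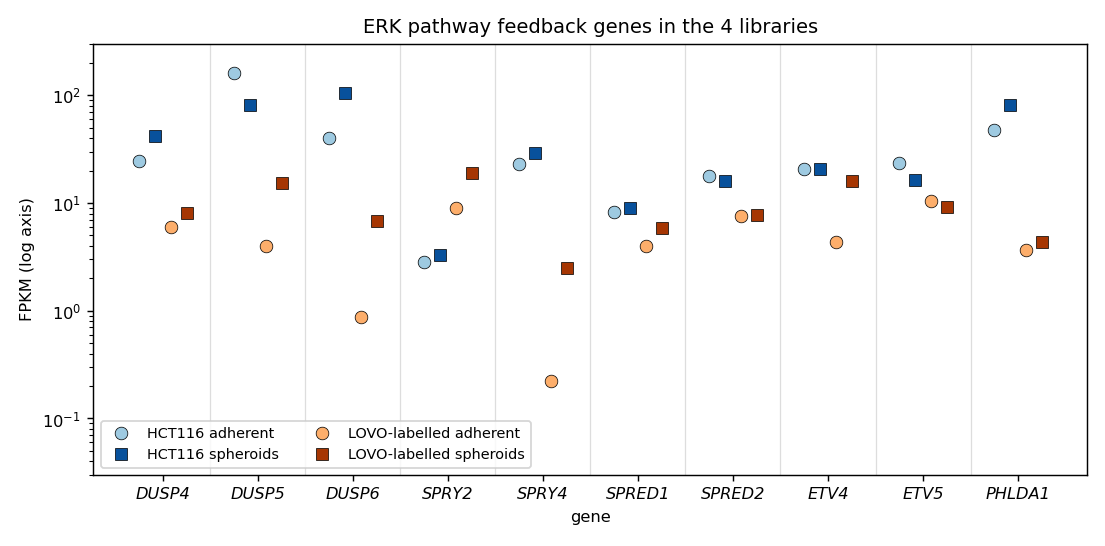
FPKM (log axis) of the 10 feedback genes, 1 point per library, with circles for adherent cells and squares for spheroids, blue for HCT116 and orange to brown for LOVO-labelled cells. For 9 genes both blue points lie above both LOVO-labelled points, and SPRY2 has the reverse order.

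All 10 genes passed the filter, an FPKM of 1 or more on average over the libraries, which left 14429 genes to compare. SPRY4 and DUSP6 were under 1 FPKM in adherent LOVO-labelled cells and passed through the other libraries. Differences between conditions are given as log2(FPKM + 1), where the pseudocount shrinks those of low genes, and log2 ratios without the pseudocount of 1 are given with exact 95% counting intervals from the reads behind each value.

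In HCT116, the spheroids held more DUSP6, PHLDA1 and DUSP4 mRNA and less DUSP5 and ETV5 mRNA than the adherent cells. Of the 10 genes 6 were higher in the spheroids, where 45.8% of all genes compared were, and 4 were lower, where 53.4% were. Past a log2 difference of 1 there was 1 gene, DUSP6, where 2.19% of all genes were above 1, and 0 were past 2, where 0.201% were. DUSP6 differed by 1.37, and 111 of the 14429 genes had a larger difference. Its log2 ratio was 1.39 (counting interval 1.33 to 1.45), a 2.62-fold higher FPKM in the spheroids. PHLDA1 differed by 0.78 and DUSP4 by 0.73, and their log2 ratios had intervals from 0.75 to 0.83 and from 0.69 to 0.81. SPRY4 differed by 0.33, with an interval of its ratio from 0.27 to 0.41.

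In the opposite direction, DUSP5 differed by -0.99 in HCT116 spheroids, just short of -1, which 3.33% of all genes were below. Its reads numbered 8676 in adherent cells and 3570 in spheroids, and the log2 ratio was -1.002 (counting interval -1.06 to -0.95). ETV5 differed by -0.50 (interval of the ratio -0.62 to -0.44) and SPRED2 by -0.13 (interval -0.24 to -0.04). SPRED1 differed by 0.12, with an interval that ran from 0.02 to 0.24. For SPRY2 and ETV4, at 0.15 and -0.0043, the intervals were -0.12 to 0.51 and -0.11 to 0.10, so a difference was not detectable at this depth, and with TPM or centring the sign of ETV4 turned. The median difference over the 10 genes was 0.13, against -0.03 over all genes compared.

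In the LOVO-labelled cells, 9 of the 10 genes were higher in spheroids, where 45.5% of all genes were. Past a log2 difference of 1 there were 5, where 8.57% of all genes were above 1, and 1, DUSP6, was past 2, where 1.81% were. SPRY4 was also past 2 with a pseudocount of 0.1 (3.03) or 0.01 (3.45), and with TPM SPRY4 (2.61), DUSP5 (2.05) and ETV4 (2.01) were. The share of all genes past 2 was not taken under these settings. The 5 genes past 1 were DUSP6, DUSP5, ETV4, SPRY4 and SPRY2. DUSP6 had 72 reads in adherent cells and 632 in spheroids, a difference of 2.06 and a log2 ratio of 2.97 (counting interval 2.61 to 3.34). A larger difference was held by 241 of the 14429 genes. SPRY4 had 26 reads in adherent cells and 333 in spheroids, with a difference of 1.53, and its log2 ratio of 3.51 (interval 2.94 to 4.15) was the largest of the 10 genes in this line. On the FPKM scale without a pseudocount this was 11.4-fold.

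DUSP5 differed by 1.69 between LOVO-labelled spheroids and adherent cells (log2 ratio 1.92, interval 1.69 to 2.16). ETV4 differed by 1.67 (log2 ratio 1.88, interval 1.69 to 2.07). SPRY2 differed by 1.02 (log2 ratio 1.10, interval 0.94 to 1.25). Smaller differences were found for SPRED1, DUSP4 and PHLDA1, at 0.46, 0.38 and 0.20, and their intervals lay above 0. With TPM these were 0.72, 0.62 and 0.43. ETV5 was the 1 gene that was lower in these spheroids, where 53.5% of all genes were, with a difference of -0.17 (interval of the ratio -0.31 to -0.06), and under rescaling to TPM its difference was 0.02. SPRED2 was at 0.04 (0.24 with TPM), with an interval from -0.11 to 0.19. The median over the 10 genes was 0.74, against -0.06 over all genes compared, and 0 genes were below -1, where 7.85% of all genes were.

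**Figure D2:**
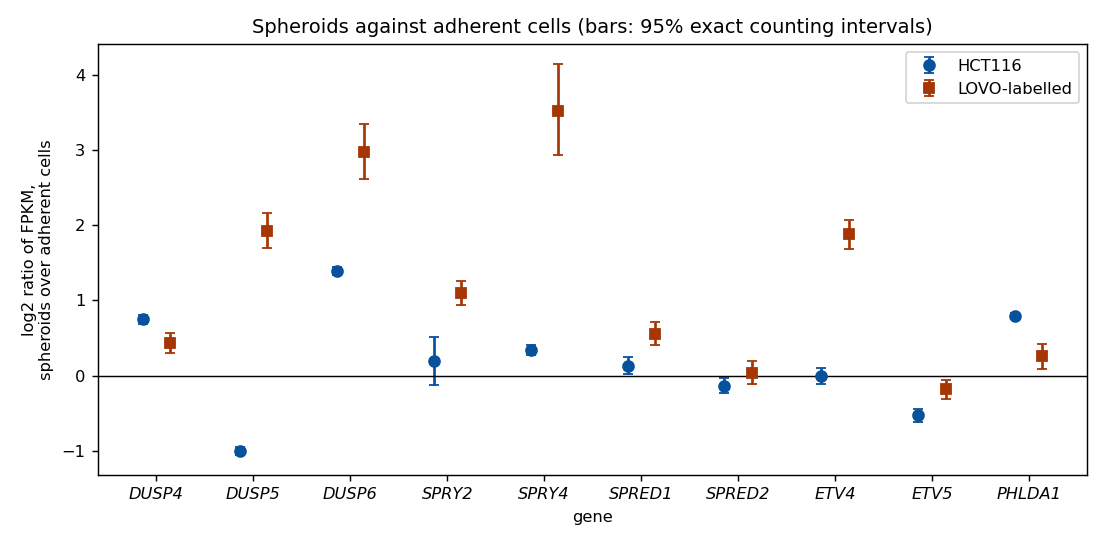
Log2 ratio of FPKM between spheroids and adherent cells for each gene in HCT116 (blue circles) and LOVO-labelled cells (brown squares), with 95% exact counting intervals as bars. DUSP6 lies at 1.39 and 2.97, and DUSP5 lies at -1.002 in HCT116 and 1.92 in LOVO-labelled cells.

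Read across the lines, 6 of the 10 genes were higher in both kinds of spheroids, where 27.2% of all genes were. These were DUSP4, DUSP6, SPRY2, SPRY4, SPRED1 and PHLDA1. ETV5 alone was lower in both, where 35.1% of all genes were, and DUSP5, ETV4 and SPRED2 had opposite signs, where 35.8% of all genes had. These counts go by sign alone. The counting interval included 0 for SPRY2 and ETV4 in HCT116 and for SPRED2 in LOVO-labelled cells. The sign of ETV4 in HCT116 turned with TPM or centring, and that of ETV5 in LOVO-labelled cells with TPM. A limma fit took both lines as stand-ins for replicates, which leaves 1 residual degree of freedom. In it the growth form effect of DUSP6 was 1.71 (standard error 0.28), and its Benjamini-Hochberg adjusted p over all genes was 0.462 by limma. It was the 1 gene of the 10 with an unadjusted p under 0.05, a threshold met by 10.7% of all genes. After adjustment 0 genes of 14429 passed (0% of those compared), with 1545 at an unadjusted p under 0.05, so the fit called none of the 10 genes. For SPRY4 the effect was 0.93 (standard error 0.37, adjusted p = 0.464), and for DUSP5 it was 0.35 (standard error 0.66, adjusted p = 0.838).

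The make-up of the phosphatase genes DUSP4, DUSP5 and DUSP6 differed between the growth forms of each line. FPKM is a level per length, so the levels of different genes can be summed and set side by side. In HCT116 the sum of DUSP4, DUSP5 and DUSP6 was 227.5 FPKM in adherent cells and 227.6 FPKM in spheroids. DUSP5 supplied 71.5% of it in adherent cells and 35.7% in spheroids, and DUSP6, the cytoplasmic enzyme, supplied 17.6% and 46.0%. In the LOVO-labelled cells the sum was 10.9 FPKM in adherent cells and 30.1 FPKM in spheroids. There DUSP4 supplied 55.3% in adherent cells and 27.1% in spheroids, and DUSP5 36.8% and 50.4%. DUSP6 supplied 7.95% and 22.5%, so its share was higher in the spheroids of both lines. Other MAP kinase phosphatases are outside these sums, and of them DUSP1 stood at 170 and 149 FPKM in LOVO-labelled cells. Of 7 such genes, 2 had a log2 difference above 1 as LOVO-labelled minus HCT116 in adherent cells, where 17.4% of all genes did. Below -1 there were 3, where 16.4% of all genes were. In spheroids 1 was above 1, where 17.7% of all genes were, and 2 were below -1, where 15% were.

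The Sprouty pair was led by a different gene in each line. SPRY4 supplied 89.0% of the summed SPRY2 and SPRY4 level in adherent HCT116 cells and 89.9% in their spheroids. In the LOVO-labelled cells SPRY2 supplied 97.6% and 88.3%. Of the summed ETV4 and ETV5 level, ETV4 supplied 46.8% and 55.8% in HCT116 and 29.4% and 63.5% in LOVO-labelled cells. SPRED2 supplied more than SPRED1 in all 4 libraries, from 57.2% to 68.3% of their sum. These shares have 1 library behind each and no replicate error.

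**Figure D3:**
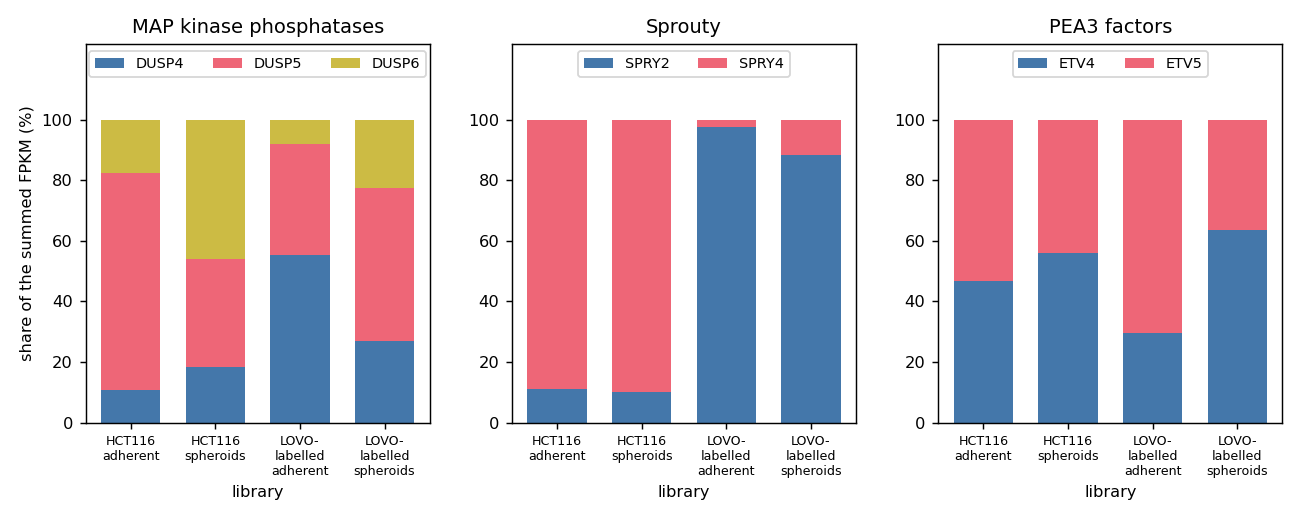
Share (%) of the summed FPKM supplied by each gene of the MAP kinase phosphatases DUSP4, DUSP5 and DUSP6, the Sprouty pair and the PEA3 factors, as stacked bars per library. DUSP6 supplies 17.6% in adherent HCT116 cells and 46.0% in their spheroids, and SPRY4 supplies 89.0% of the Sprouty sum in adherent HCT116 cells and 2.41% in adherent LOVO-labelled cells.

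Between the lines, 9 of the 10 genes had both HCT116 libraries above both LOVO-labelled libraries, where 30.4% of all genes had, and SPRY2 was the reverse, as 34.3% of all genes were. In adherent cells 8 genes were below -1 as LOVO-labelled minus HCT116, against 16.4% of all genes, and 1 gene, SPRY2, was above 1, against 17.4%. DUSP5 differed by -5.03, with 27 of the 14429 genes lower still, DUSP6 by -4.46 and SPRY4 by -4.30. Their order depends on the pseudocount and scaling, since the ratios without a pseudocount were 40.6-fold, 46.1-fold and 104-fold in favour of HCT116, and with TPM SPRY4 was farthest apart, at -5.43. In spheroids 5 genes were below -1, against 15% of all genes, and SPRY2 at 2.23 was above 1, against 17.7%. PHLDA1 was farthest apart there, at -3.96, with 66 genes lower still. ETV4 was nearest to 0, at -0.35 in spheroids (-0.14 with TPM) against -2.03 in adherent cells. Past a threshold of 2, 5 genes were below -2 in adherent cells (5.59% of all genes) and 0 above 2 (5.26%), and in spheroids 5 were below -2 (4.71%) and 1, SPRY2, above 2 (5.68%).

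In the same limma fit, the cell line effect had an adjusted p under 0.05 for 7 of the 10 genes, where 24.7% of all genes did, and all 10 had an unadjusted p under 0.05, as 41.4% of all genes had. The effect, LOVO-labelled minus HCT116, was -4.11 for DUSP6 (standard error 0.28, adjusted p = 0.00484), -3.68 for PHLDA1 (adjusted p = 0.00528) and -3.70 for SPRY4 (adjusted p = 0.00751). DUSP4 at -2.05, DUSP5 at -3.69 and SPRED2 at -1.05 also passed, with adjusted p = 0.0112, 0.0230 and 0.0395. SPRY2 passed in the other direction at 1.80 (adjusted p = 0.0217). ETV5, SPRED1 and ETV4 did not pass, at -0.94, -0.72 and -1.19 with adjusted p = 0.0544, 0.101 and 0.119. The libraries of a line differ in growth form and are not replicate cultures of it, and without the filter on low values 0 genes passed at an adjusted p under 0.05, with 6918 at an unadjusted p under 0.05. The call of SPRED2 was also lost with TPM (adjusted p = 0.0537) and without the growth form covariate (adjusted p = 0.0508).

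Other genes of the pathway were read from lists. The core of the RAS-ERK cascade, from adaptors to ERK and its RSK kinases, held 24 genes. In HCT116 0 of them were past a log2 difference of 1 in size, where 2.19% of all genes were above 1 and 3.33% below -1. In LOVO-labelled cells 1 was below -1, where 7.85% of all genes were, and 0 were above 1, where 8.57% were. That gene was PTPN11, the phosphatase SHP2 that relays receptor signals to RAS, with 44.5 FPKM in adherent cells and 21.7 FPKM in spheroids (difference -1.01). BRAF, a kinase of the RAF family, stood at 1.98 and 2.06 FPKM in HCT116 and 2.01 and 1.69 FPKM in LOVO-labelled cells, with the adherent cells first. The median difference of the list was -0.04 in HCT116 and -0.25 in LOVO-labelled cells. By limma 0 of the 24 genes passed for growth form, as 0% of all genes did. At an unadjusted p under 0.05 there were also 0 of them, where 10.7% of all genes were. In LOVO-labelled cells 3 were higher and 2 lower at an adjusted p under 0.05, as 24.7% of all genes were in either direction.

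Among 7 other MAP kinase phosphatases, 2 were below -1 in each line, where 3.33% of all genes were in HCT116 and 7.85% in LOVO-labelled cells. Above 1 there were 0 in each line, where 2.19% of all genes were in HCT116 and 8.57% in LOVO-labelled cells. DUSP1, an immediate early phosphatase, had 30.1 FPKM in adherent HCT116 cells and 9.32 FPKM in spheroids (difference -1.59), and 170 and 149 FPKM in LOVO-labelled cells (difference -0.19). DUSP2 had 11.2 and 3.64 FPKM in HCT116 (difference -1.39) and 3.15 and 1.21 FPKM in LOVO-labelled cells (difference -0.91). DUSP16, which acts mainly on JNK and p38, had 6.83 and 9.59 FPKM in HCT116 (difference 0.44) and 53.2 and 19.9 FPKM in LOVO-labelled cells (difference -1.38). DUSP8 differed by -0.27 in HCT116 and by -1.33 in LOVO-labelled cells. By limma 0 of the 7 passed for growth form, DUSP2 being the 1 with an unadjusted p under 0.05 (10.7% of all genes), and 2 were higher and 2 lower in LOVO-labelled cells (24.7% of all genes in either direction).

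A list of 19 further family members and ERK output genes had 18 compared, and SPRY3 was left out by the filter. In HCT116 spheroids 4 were below -1, where 3.33% of all genes were, and 0 above 1, where 2.19% were. In LOVO-labelled spheroids 6 were above 1, where 8.57% of all genes were, and 0 below -1, where 7.85% were. The immediate early factor EGR1 had 196 FPKM in adherent HCT116 cells and 26.7 FPKM in spheroids (difference -2.83), but 4.03 and 6.68 FPKM in LOVO-labelled cells (difference 0.61). FOS, another immediate early factor, stood at 52.9 and 6.62 FPKM in HCT116 (difference -2.82) and 8.13 and 9.70 FPKM in LOVO-labelled cells (difference 0.23). The stress-responsive gene IER3 had 510 and 409 FPKM in HCT116 and 29.5 and 882 FPKM in LOVO-labelled cells, differences of -0.32 and 4.85. PHLDA2, a relative of PHLDA1, differed by -1.45 in HCT116 and 2.18 in LOVO-labelled cells. Median differences of the list were -0.35 and 0.60. By limma 0 of the 18 passed for growth form, with 1 at an unadjusted p under 0.05 (SPRY1, named after its values were seen), where 10.7% of all genes were. In LOVO-labelled cells 7 were lower and 0 higher at an adjusted p under 0.05 (24.7% of all genes in either direction).

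Of 12 regulators that act at ETS sites or on these promoters, 1 was below -1 in HCT116 spheroids, where 3.33% of all genes were. Above 1 there were 0, where 2.19% were. In LOVO-labelled spheroids 1 was above 1, where 8.57% of all genes were, and 0 below -1, where 7.85% were. In both lines the gene was ETS1, at -1.17 in HCT116 and 1.13 in LOVO-labelled cells. CIC, a repressor of ETV4 and ETV5 that ERK signalling relieves, had 10.7 and 15.4 FPKM in HCT116 (difference 0.49) and 10.9 and 20.6 FPKM in LOVO-labelled cells (difference 0.86). Median differences of the list were -0.02 and 0.23. By limma 0 of the 12 passed for growth form, CIC being the 1 with an unadjusted p under 0.05 (10.7% of all genes), and 1 was higher and 1 lower in LOVO-labelled cells (24.7% of all genes in either direction).

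**Figure D4:**
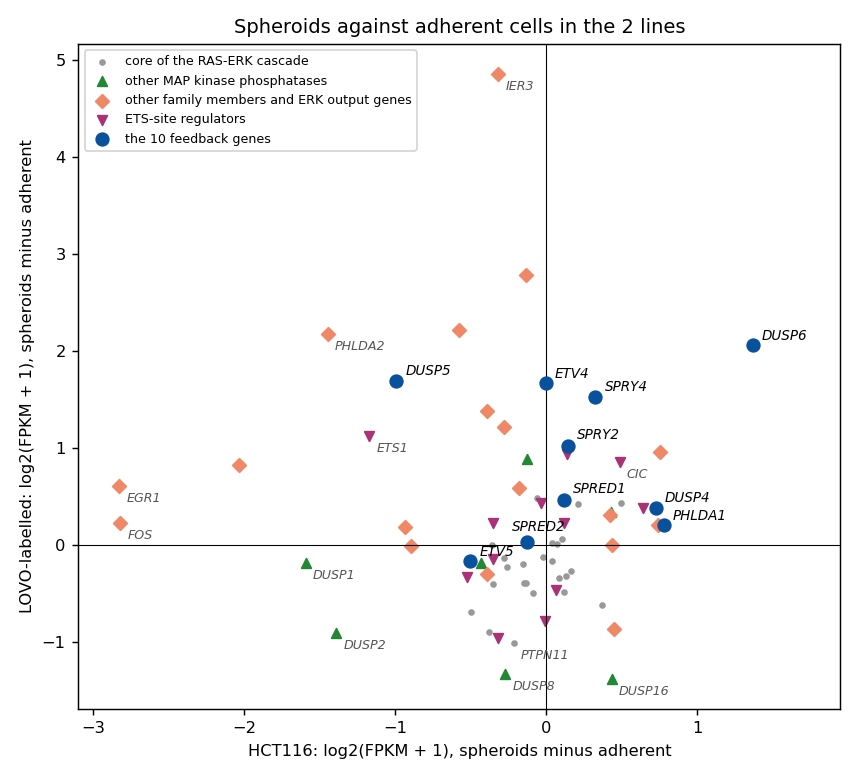
Difference of log2(FPKM + 1) between spheroids and adherent cells in HCT116 (x axis) and in LOVO-labelled cells (y axis), 1 point per gene, for the 10 feedback genes (blue) and 4 lists of pathway genes. DUSP6 lies far to the upper right at 1.37 and 2.06, whereas DUSP5 (-0.99 and 1.69) lies on the upper left with PHLDA2 and ETS1.

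The genes with the most similar profiles over the 4 libraries were sought among protein-coding genes that averaged 5 FPKM or more, by the distance between log2(FPKM + 1) values centred on each gene's mean. The profile rests on 4 points, so the distances are a description. For DUSP5 the nearest were GEM (distance 0.391) and FLNC (0.474), and for DUSP6 they were OLFM2 (0.686) and ISYNA1 (0.904). SPRY4 had MYEOV (0.324) and ENDOD1 (0.388), and PHLDA1 had CPOX (0.144) and PLAU (0.189). DUSP4 had CMTM6 (0.290) and ARVCF (0.299), and ETV4 had ZCCHC24 (0.162) and LTBP4 (0.177). SPRY2 had FAM234A (0.0708) and P3H4 (0.0852), and ETV5 had PTMS (0.0812) and PLPBP (0.0978). SPRED1 had ANKRA2 (0.0436) and GRAMD1A (0.0532), and SPRED2 had UBE2W (0.0256) and CEP95 (0.0749). None of the 10 genes had another of the 10 as its nearest, and within the group SPRED2 and ETV5 were each other's nearest, at a distance of 0.319, as were DUSP6 and SPRY4, at 0.924.

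The genes are spread over 9 chromosomes of GRCh38, with the DUSP6 and PHLDA1 genes both on chromosome 12. DUSP4 lies on chromosome 8 from 29333064 to 29350668, DUSP5 on chromosome 10 from 110497838 to 110511544 and DUSP6 on chromosome 12 from 89347232 to 89353271. SPRY2 lies on chromosome 13 from 80335976 to 80340951 and SPRY4 on chromosome 5 from 142310427 to 142326455. SPRED1 lies on chromosome 15 from 38252326 to 38357249 and SPRED2 on chromosome 2 from 65310851 to 65432637. ETV4 lies on chromosome 17 from 43527844 to 43579620, ETV5 on chromosome 3 from 186046308 to 186110318 and PHLDA1 on chromosome 12 from 76025447 to 76033932. DUSP5 and SPRED1 are on the plus strand and the other 8 on the minus strand, and each has at least 1 protein-coding transcript in GENCODE 29.

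Exons of other annotated genes overlap 4 of them. Of the 4632 exonic bases of DUSP6, 1875 (40.5%) are shared with AC024909.2 on the opposite strand. That antisense gene had 0.456 and 2.69 FPKM in HCT116 and 0 and 0.0440 FPKM in LOVO-labelled cells, far under DUSP6. PHLDA1 shares 16.5% of its 8069 exonic bases with the antisense genes AC011611.3 and AC011611.4, ETV4 shares 1.89% with DHX8 on the opposite strand, and ETV5 2.83% with DGKG on the same strand. Whether the authors' counting used strand is not given in the sources used here, so reads of these overlaps may not be separate.

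The mRNAs of several of these genes hold AU-rich elements, strings in the 3′ untranslated region that are bound by decay factors. In 1 coding transcript per gene, 7 of the 10 genes held TATTTAT at least once, against 31.2% of 11642 protein-coding genes compared. SPRED1 held it 5 times, DUSP4 and SPRY4 4 times each, PHLDA1 3 times and SPRY2 2 times. DUSP5, DUSP6 and ETV4 held it 0 times. The regions were long in 8 of the 10 genes, over the median of 1000 bases, and 7 genes were over the median density of the shorter string ATTTA, 1.49 per kilobase. A match is a description of the sequence and not of mRNA stability in these cells.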

How the data were processed

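RNA-seq had been performed on 4 libraries, 1 per condition, prepared per the labels from total RNA with a SMARTER mRNA-Seq kit. The table deposited by the authors gives an FPKM for each gene in each library, beside gene length, coordinates and biotype. The aligner, the counter and the annotation are not given in the sources used here. The submitters' processing notes list GRCm38 and mm10, which are mouse builds, but all 58735 gene identifiers of the table were found in GENCODE 29 (human, GRCh38). The study's methods name edgeR, which was not used here.

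FPKM times gene length were whole multiples of a step for 100% of the values above 0 (tolerance 0.01 reads), which gave back the reads: 15483569 to 20429147 on genes per library. The library size behind the FPKM was 0.998 times the sum of these reads in adherent HCT116 cells and 1.085 times in their spheroids. In LOVO-labelled cells it was 0.907 times in adherent cells and 1.053 times in spheroids. TMM factors computed here were 0.987, 1.096, 0.905 and 1.021 in the same order, so that alternative was close to the deposited scaling. At 3 reads, the floor for a gene of 1 kb was 0.147 to 0.179 FPKM. Differences were taken on log2(FPKM + 1) over genes averaging 1 FPKM or more. Limma 3.58.1 (R 4.3.3), with a mean-variance trend and p-values adjusted by Benjamini-Hochberg, modelled the 4 libraries by growth form and cell line. The fit had been run on simulated data in which both lines had the same growth form effect and did not otherwise differ. The real libraries do not have that form, so the run does not measure how well the fit works here. Counting intervals were exact (Clopper-Pearson). Python 3.11.15, numpy 2.4.6, pandas 2.3.3, scipy 1.17.1 and matplotlib 3.10.9 were used.

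The members, lists and tests were chosen with earlier results of these data known. Named beside the members were the up to 4 genes per list past a difference of 1 in either line with the largest mean size, BRAF and CIC, the 2 nearest genes per member, and genes with overlapping exons. A gene that the rule also names is not reported here. Alternatives were pseudocounts of 0.1 and 0.01, no filter, a mean FPKM of at least 5, TPM, TMM factors on the recovered reads, centring, protein-coding genes, a threshold of 2, limma without the covariate and without the trend. Protein sequences were not used here. Only promoters in the RefSeq table were searched. AU-rich strings were counted in the transcript with the longest coding part.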

Additional observations from a re-analysis of the deposited data

Results flagged for a closer look

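Genes with opposite directions in the lines were marked for a closer look, and the difference between the lines was not tested, since each condition had 1 library. For DUSP5 the log2 difference, spheroids minus adherent cells, was -0.99 in HCT116 but 1.69 in LOVO-labelled cells. ETV4 had -0.0043 in HCT116, where the counting interval includes 0, and 1.67 in LOVO-labelled cells. SPRED2 had -0.13 in HCT116 and 0.036 in LOVO-labelled cells, where the interval includes 0.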

How the results depend on the processing

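With 1 library per condition, leaving out a replicate was not possible, and the labels give no replicate numbers to pair by. The limma fit pairs the libraries by cell line, and the fit without the covariate is the unpaired alternative. Past a threshold of 2, 0 members were higher in HCT116 spheroids and 1, DUSP6, in LOVO-labelled spheroids, joined there by SPRY4 with pseudocounts of 0.1 and 0.01 and by SPRY4, DUSP5 and ETV4 with TPM. Between adherent cells 0 were above 2 and 5 below -2. With pseudocounts of 0.1 and 0.01 and with TMM factors, 1 member, DUSP5, was below -1 in HCT116. Between adherent cells of the lines 9 members were below -1 with pseudocounts of 0.1 and 0.01, against 8. Between spheroids 6 were with these pseudocounts and with centring, against 5. In the main setting 3.33% of all genes were below -1 in HCT116 spheroids. Between the lines 16.4% were in adherent cells and 15% in spheroids. Past 2 were 0.201% in HCT116 spheroids and 1.81% in LOVO-labelled spheroids, and between adherent cells 5.26% were above 2 and 5.59% below -2. Shares of all genes were not taken under the alternatives, so the member counts there have none beside them. The limma line effect passed for 0 genes without the filter and for 1887 of the 8146 genes averaging 5 FPKM or more, against 3564. Values near 0 changed sign: ETV4 in HCT116 was 0.013 with TPM and 0.028 with centring, ETV5 in LOVO-labelled cells 0.020 with TPM, the growth form effect of SPRED2 0.060 with TPM and 0.037 with centring, and the median of the ETS-site list in HCT116 0.012 with centring. TPM also moved differences of LOVO-labelled spheroids by over 1.5 times for DUSP4 (0.38 to 0.62), PHLDA1 (0.20 to 0.43), SPRED1 (0.46 to 0.72), SPRY4 (1.53 to 2.61) and SPRED2 (0.036 to 0.237), and that of ETV4 between spheroids from -0.35 to -0.14. Over all alternatives, differences of the members moved by more than their counting error 48 times, changed sign 3 times and did neither 269 times. TPM moved the median of all genes from -0.06 to 0.10 in LOVO-labelled spheroids and from 0.04 to 0.26 between the spheroids of the lines. The cause was not tested. The growth form effect passed for 0 genes under each alternative, with 163 (no covariate) to 1906 (no filter) at an unadjusted p under 0.05.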
